A study of Mus musculus with 28 samples.

Results

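The Polycomb repressive complex genes described here were taken by name: the PRC2 genes Ezh2, Ezh1, Eed, Suz12 and Jarid2 and the PRC1 genes Rnf2, Cbx7, Kdm2b and Pcgf6. These 9 genes, of 37991 in the count tables, were all among the 20321 genes with enough reads to be tested. The rule used their names only and no measured value, but the genes were chosen with earlier results of these data known.

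PRC2 methylates histone H3 on lysine 27, and PRC1 ubiquitinates histone H2A and compacts chromatin. Together they keep developmental genes silent in embryonic stem cells, mostly at CpG islands that carry no DNA methylation. The knockdown target, KAP1 (encoded by Trim28), works in a separate repressive system that places H3K9me3 on transposable elements and imprinted loci.

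The cells were naive mouse embryonic stem cells (mESCs) of the J1 line, a 129S4/SvJae line, grown in 2i medium with LIF on gelatin. The 3 genotypes were wild-type, DNMT TKO (knockout of Dnmt1, Dnmt3a and Dnmt3b, without DNA methyltransferases) and TET TKO (knockout of Tet1, Tet2 and Tet3, the enzymes that oxidise 5-methylcytosine). Cells received a lentiviral vector with an empty hairpin cassette (shEmpty) or a hairpin against Kap1 (shKAP1), were selected with puromycin and were collected on day 5. RNA-seq comprised 3 libraries per hairpin in wild-type and in DNMT TKO cells and 2 per hairpin in TET TKO cells, 16 in all. ChIP-seq peaks of H3K4me3 and H3K27me3 in wild-type cells (2 replicates each) and 1 pair of 5hmC libraries gave further readouts, which the rule did not use. Each genotype was represented by 1 cell line, and per the methods the DNMT TKO and TET TKO cells came from different laboratories. Effects of the knockouts and differences between lines therefore cannot be told apart. Kap1 depletion also arrests the proliferation of mESCs, which limits the knockdown as a model of KAP1 loss alone.

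Between 18108431 and 29373696 reads fell on genes in each library. Trim28 fell with the hairpin in all genotypes, 10.6-fold in wild-type, 11.1-fold in TET TKO and 4.37-fold in DNMT TKO cells. The knockdown was weaker in DNMT TKO than in wild-type cells by 1.28 ± 0.21 (SE) on the log2 scale (edgeR quasi-likelihood test, adjusted p = 8e-04): the 3 DNMT TKO shKAP1 libraries held 326.8, 448.3 and 506 CPM of Trim28 (read counts scaled to library size) and the wild-type ones 149.3 to 190. The summed CPM of the 8 pluripotency markers was 5364 to 5615 in wild-type shEmpty libraries and 3390 to 3479 after knockdown, where 6 of the 8 fell, Klf2 rose and Pou5f1 changed by -0.12 ± 0.063 (adjusted p = 0.14). None of the 8 was at 0 in any library. It went from 5183 to 5364 down to 3532 to 4144 in DNMT TKO, and from 6309 to 6382 down to 4294 to 4394 in TET TKO cells. The sum of 11 proliferation genes was 5157 to 5270 CPM in wild-type shEmpty and 4034 to 4105 in shKAP1 libraries, 5069 to 5178 and 4441 to 4581 in DNMT TKO, and 4768 to 4862 and 4311 to 4344 in TET TKO cells. Of these 11 genes 9, 7 and 4 fell in wild-type, DNMT TKO and TET TKO cells. The other two in wild-type cells rose, Mki67 by 0.19 ± 0.064 (log2, SE; adjusted p = 0.022) and Cdkn1a, an inhibitor of the cell cycle, by 0.41 ± 0.101 (adjusted p = 0.0035), and both rose in DNMT TKO cells too. The sum of 3 genes of 2-cell-like cells was 10.2 to 19.7 CPM in wild-type shEmpty and 153.7 to 171 in shKAP1 libraries, 4.72 to 14.9 and 47.1 to 104.2 in DNMT TKO, and 6.65 to 7.23 and 462.6 to 477.1 in TET TKO cells. Mesoderm markers summed to 22.6 to 26.6 CPM in wild-type shEmpty and 11.01 to 13.8 in shKAP1 libraries, 15.3 to 19.04 and 6.82 to 13.6 in DNMT TKO, and 21.6 to 22.3 and 15.6 to 20.3 in TET TKO cells. Trophoblast markers overlapped between the hairpins in wild-type cells and went from 70.2 to 87.8 down to 59.2 to 63.6 CPM in DNMT TKO and from 111.5 to 117.4 down to 83.3 to 84.3 in TET TKO cells. Endoderm markers overlapped in wild-type cells and went from 5.59 to 7.44 up to 9.09 to 12.3 CPM in DNMT TKO and from 12.7 to 14.2 up to 15.0 to 15.4 in TET TKO cells. Fibroblast or feeder markers summed to at most 11.5 CPM in any library, overlapped in wild-type cells, and were higher with shKAP1 in DNMT TKO (10.7 to 11.5 against 5.69 to 8.29 CPM) and lower in TET TKO cells (4.72 to 5.19 against 7.44 in both libraries). Single genes of these last 3 lists went both ways. In TET TKO cells mean Gata4 went from 7.70 to 9.25 CPM, but Gata6 from 0.99 to 0.59 and Sox7 from 0.89 to 0.46. There Tfap2c went from 38.5 to 14.5 and Krt18 from 12.8 to 17.3 CPM. In wild-type cells Sox17 rose by 2.21 and Sox7 fell by 2.31 (log2), and Thy1 rose by 1.26 and Col1a1 fell by 1.29. In bulk RNA a smaller share of cells expressing a gene and less RNA per cell cannot be told apart.

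The starts of 2 of these genes carry the comparison of chromatin and expression, because Suz12 differed most between DNMT TKO and wild-type cells without knockdown and Kdm2b fell most after knockdown in wild-type and TET TKO cells. They are shown as the RefSeq promoter windows (250 bases before and 50 after the transcript start, taken from GRCm38.p6 and found once, base for base, in the mm9 genome of the files), 5′ to 3′ on the coding strand with each CpG in capitals. Suz12 is at chr11:79806358-79806657 (+), the Kdm2b long transcript at chr5:123439059-123439358 (-) and its short transcript at chr5:123350310-123350609 (-).
Suz12: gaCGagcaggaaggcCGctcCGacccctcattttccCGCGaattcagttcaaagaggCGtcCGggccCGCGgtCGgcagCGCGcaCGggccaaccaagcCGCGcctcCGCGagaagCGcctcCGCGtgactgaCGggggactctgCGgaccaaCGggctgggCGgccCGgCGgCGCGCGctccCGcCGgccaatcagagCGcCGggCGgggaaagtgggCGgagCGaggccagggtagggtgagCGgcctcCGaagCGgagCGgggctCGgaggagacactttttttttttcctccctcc
Kdm2b long start: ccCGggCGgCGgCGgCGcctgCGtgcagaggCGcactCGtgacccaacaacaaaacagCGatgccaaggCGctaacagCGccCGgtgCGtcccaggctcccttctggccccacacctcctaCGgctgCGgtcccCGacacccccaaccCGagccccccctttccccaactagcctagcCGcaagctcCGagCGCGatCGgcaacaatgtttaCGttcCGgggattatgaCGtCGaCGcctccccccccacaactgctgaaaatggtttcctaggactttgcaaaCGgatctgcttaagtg
Kdm2b short start: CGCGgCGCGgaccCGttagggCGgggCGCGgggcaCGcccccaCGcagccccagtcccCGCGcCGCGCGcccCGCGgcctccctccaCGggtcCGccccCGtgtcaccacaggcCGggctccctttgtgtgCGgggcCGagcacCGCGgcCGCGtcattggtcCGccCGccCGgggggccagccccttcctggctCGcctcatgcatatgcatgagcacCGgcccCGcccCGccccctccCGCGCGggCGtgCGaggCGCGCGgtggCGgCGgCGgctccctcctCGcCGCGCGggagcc
The Suz12 window held 41 CpGs at 71.0% GC, the Kdm2b long start 28 at 63.7% and the short start 49 at 81.7%. Across all 32851 RefSeq promoter windows the median was 7 CpGs. Over all 13 windows of the 9 genes the number ran from 17, at Eed, to 49, so that each lay above that median. Of the motifs searched on both strands, GCGGGAA (an E2F core) was found in 1 window of these genes, that of Suz12, and in 4.6% of all promoters. CACGTG (an E-box) and CCGGAAG (an ETS core), held by 7.15% and 8.86% of all promoters, were found in no window of these genes.

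Per length, levels differed widely among these genes in wild-type shEmpty cells. They are given as RPKM, the CPM divided by the merged length of all annotated exons of the gene in kilobases. The order of genes, and the Ezh1 share given below, therefore depend on the annotation. Eed, which binds H3K27me3 and stimulates the enzyme, stood highest at 107.8 ± 9.16 RPKM (SD, n = 3), followed by the PRC2 scaffold Suz12 at 86.4 ± 1.92. Rnf2 (RING1B, the ubiquitin ligase of PRC1) stood at 59.95 ± 3.05 and Ezh2, the main H3K27 methyltransferase, at 51.9 ± 1.36. Jarid2 (a PRC2 cofactor that aids recruitment), Pcgf6 (a subunit of a variant PRC1) and Cbx7 (a reader of H3K27me3 in canonical PRC1) followed at 36.3 ± 2.92, 33.6 ± 0.858 and 30.9 ± 2.03 RPKM. The ranges of Jarid2 and Pcgf6 overlapped, as did those of Pcgf6 and Cbx7, while the other neighbours in this order did not. Kdm2b, whose zinc finger binds unmethylated CpGs and brings PRC1 to CpG islands, was low at 8.24 ± 0.757 RPKM, and Ezh1, the second H3K27 methyltransferase, was lowest at 6.14 ± 0.472. In shEmpty cells of both knockout lines Suz12 stood first, at 198.6 ± 13.3 RPKM in DNMT TKO (n = 3) and 127.2 ± 3.54 in TET TKO (n = 2), above Eed at 91.0 ± 14.7 and 104.5 ± 2.12 RPKM.

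**Figure D1:**
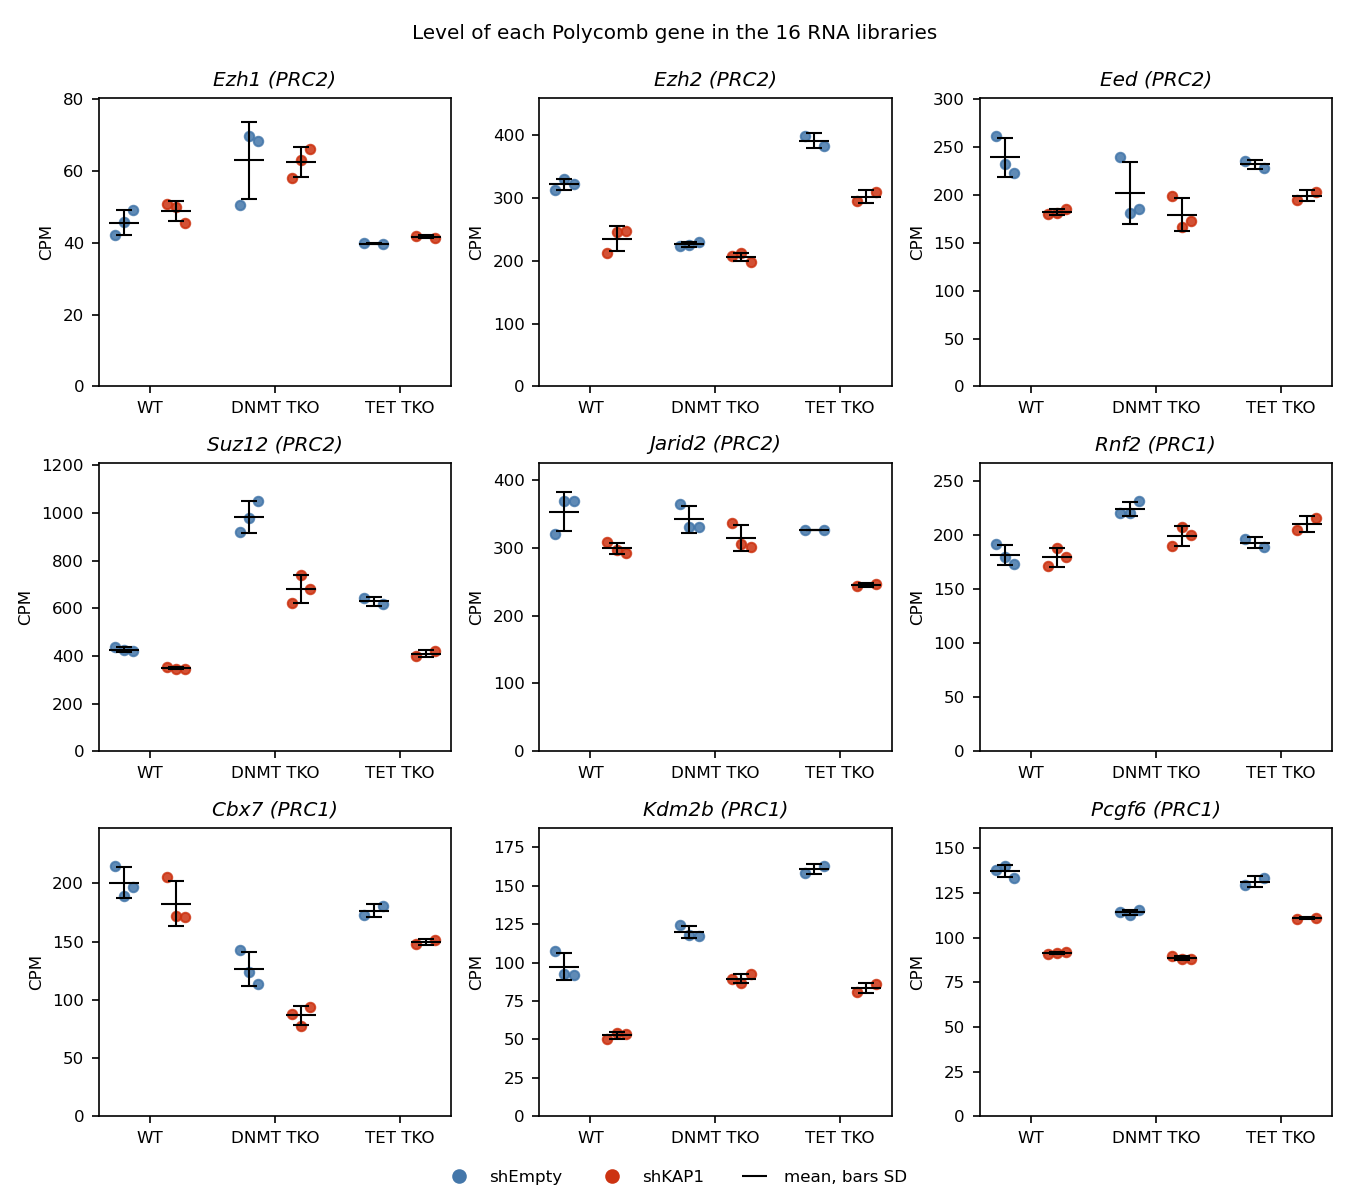
Levels of the 9 Polycomb genes in each of the 16 libraries, in CPM on linear axes that start at 0, by genotype and hairpin, with points for libraries and black marks for the group mean and SD. Suz12 in DNMT TKO shEmpty libraries (919.1 to 1051 CPM) lies above every other Suz12 library, and Kdm2b lies lower in shKAP1 than in shEmpty libraries of each genotype.

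Kap1 knockdown lowered most of these genes and raised none. In wild-type cells 6 of the 9 fell (adjusted p under 0.05, edgeR quasi-likelihood test over all genes), where 22.7% of all tested genes were lower and 23.0% higher at that threshold. In DNMT TKO cells 5 of the 9 fell, beside 15.6% of all genes, and in TET TKO cells 5 of the 9 fell, beside 15.1%. All 9 lay well above 1 CPM. Among tested genes with a mean of at least 1 CPM the shares lower were 29.5%, 21.2% and 19.7% in wild-type, DNMT TKO and TET TKO cells. Kdm2b, Suz12 and Pcgf6 fell in all genotypes. In none of them did any of the 9 rise, by edgeR, by limma-voom or by DESeq2, and 0 were higher at an unadjusted p under 0.05. Rnf2 in TET TKO cells was the exception in 2 alternative fits, those with total-count scaling (0.20, adjusted p = 0.029) and of the TET TKO libraries alone (0.16, adjusted p = 0.0064). No fall reached 2-fold, where 6.54%, 2.42% and 4.46% of all genes fell that far in wild-type, DNMT TKO and TET TKO cells. Groups without overlap, as described for single genes hereafter, were found for 54.4%, 44.7% and 69.9% of all genes in either direction. The sums of pluripotency, proliferation and mesoderm markers given above moved down with the hairpin in all genotypes as well and that of 2-cell-like genes up. Those of trophoblast markers (down), endoderm markers (up) and fibroblast or feeder markers moved in the knockout lines, while single genes of these went both ways. The part of all these lists in the falls was not tested.

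**Figure D2:**
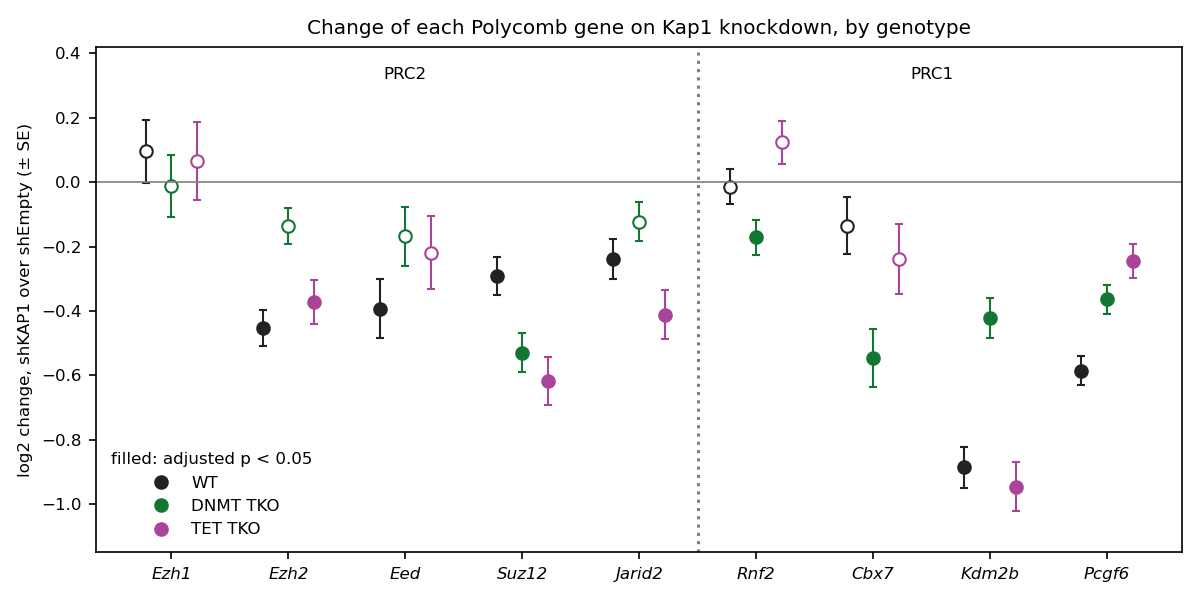
Log2 change of each Polycomb gene after Kap1 knockdown (shKAP1 over shEmpty) in wild-type, DNMT TKO and TET TKO cells, with bars for the SE from the fit over all genes and filled points for an adjusted p under 0.05. Kdm2b, Suz12 and Pcgf6 lie below 0 with filled points in all 3 genotypes, and Ezh1 has open points in each.

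Among the catalytic subunits of PRC2, Ezh2 fell after knockdown and Ezh1 did not pass the test. Ezh2 read 312.5, 329.2 and 322.3 CPM in the wild-type shEmpty libraries and 211.8, 245.2 and 247.7 in the shKAP1 libraries. In DNMT TKO cells it read 222.6, 224.9 and 230.3 CPM against 207.0, 211.6 and 198.6, and in TET TKO cells 399.0 and 382.2 against 294.6 and 308.8. The hairpin groups did not overlap in any genotype, and the gap was narrowest in DNMT TKO cells, whose shEmpty level was already near the knockdown level of wild-type cells. The change was -0.45 ± 0.056 (log2, SE; adjusted p = 3.5e-06) in wild-type, -0.37 ± 0.069 (adjusted p = 0.00042) in TET TKO and -0.14 ± 0.056 (adjusted p = 0.071) in DNMT TKO cells, where it passed in 6 of 14 alternative fits (adjusted p from 0.028). The effect was smaller in DNMT TKO than in wild-type cells by 0.32 ± 0.080 (adjusted p = 0.0093, and 0.053 without DNMT TKO shKAP1 replicate 2). Ezh1 read 42.1 to 49.1 CPM in wild-type shEmpty and 45.6 to 51.0 in shKAP1 libraries, which overlapped, and its change was 0.10 (95% interval -0.10 to 0.29). Its changes in DNMT TKO and TET TKO cells were -0.01 (-0.20 to 0.18) and 0.07 (-0.17 to 0.30). Of the RPKM of both enzymes together, Ezh1 made up 10.1%, 10.4% and 11.3% in wild-type shEmpty and 16.7%, 14.5% and 13.3% in shKAP1 libraries. This share was 15.9% to 20.6% in DNMT TKO shEmpty and 7.68% and 7.97% in TET TKO shEmpty libraries. With shKAP1 it was 19% to 21.7% in DNMT TKO, which overlapped the shEmpty range, and 10.6% and 10% in TET TKO libraries.

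Suz12, without which PRC2 does not assemble, fell in all genotypes from very different starting levels. It read 437.8, 423.4 and 419.9 CPM in wild-type shEmpty libraries and 354.5, 345.6 and 346.2 after knockdown. The DNMT TKO libraries held 919.1, 976.2 and 1051 CPM before and 622.8, 738.6 and 679.8 after knockdown, and the TET TKO libraries 641.6 and 616.6 before and 400.3 and 419.9 after. All shKAP1 libraries lay below the shEmpty libraries of their genotype, yet the DNMT TKO shKAP1 libraries still lay above every wild-type library. The changes were -0.29 ± 0.060 (adjusted p = 0.00059) in wild-type, -0.53 ± 0.060 (adjusted p = 2.2e-06) in DNMT TKO and -0.62 ± 0.073 (adjusted p = 4.3e-06) in TET TKO cells. The fall was larger in TET TKO than in wild-type cells by 0.33 ± 0.094 (adjusted p = 0.037), a call that was lost without any 1 of 9 of the 10 libraries (adjusted p up to 0.18). Between DNMT TKO and wild-type cells the change differed by -0.24 ± 0.084 (adjusted p = 0.059, and 0.044 with the replicate number as a block). That difference passed in 8 of 20 alternative fits (adjusted p 0.0086 to 0.17 over all 20). The Suz12 neighbour Utp6 changed by -0.35, -0.31 and -0.31 in wild-type, DNMT TKO and TET TKO cells (adjusted p = 6.5e-05, 0.00025 and 0.0019). Crlf3, the other neighbour, changed by -0.18, -0.13 and -0.15 (adjusted p = 0.031, 0.12 and 0.18). Chromosome 11 medians were -0.125, -0.0169 and -0.0875. The part of the segment in the Suz12 falls was not tested.

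Of the other PRC2 subunits, Eed and Jarid2 fell in wild-type cells. Eed read 261.9, 232.6 and 223.0 CPM in wild-type shEmpty libraries and 180.0, 180.9 and 185.2 in shKAP1 libraries, without overlap, a change of -0.39 ± 0.092 (adjusted p = 0.0022). In DNMT TKO and TET TKO cells its changes were -0.17 (95% interval -0.35 to 0.01) and -0.22 (-0.44 to 0.00), neither of which passed, although in the fit of the TET TKO libraries alone Eed passed at -0.18 (adjusted p = 0.0019). Jarid2 read 320.0, 369.2 and 369.2 CPM in wild-type shEmpty and 308.2, 296.9 and 292.4 in shKAP1 libraries, a change of -0.24 ± 0.061 (adjusted p = 0.0038). It went from 325.9 and 325.4 CPM to 242.8 and 247.0 in TET TKO cells, a change of -0.41 ± 0.075 (adjusted p = 0.00041). In DNMT TKO cells the Jarid2 libraries of the hairpins overlapped (330.1 to 364.5 against 300.8 to 336.4 CPM) and the change of -0.12 did not pass (adjusted p = 0.14, and 0.046 without DNMT TKO shKAP1 replicate 1). The differences of these changes between genotypes did not pass either, except that of Eed in DNMT TKO cells without DNMT TKO shEmpty replicate 1 (0.32, adjusted p = 0.028).

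In PRC1, Kdm2b had the largest fall of the 9 genes in wild-type and in TET TKO cells. It read 107.7, 92.4 and 92.0 CPM in wild-type shEmpty libraries and 50.3, 54.4 and 53.3 in shKAP1 libraries. In TET TKO cells it read 158.4 and 163.0 before against 80.9 and 85.9 CPM after knockdown, and in DNMT TKO cells 124.5, 118.2 and 117.3 against 89.4, 86.7 and 92.3. The hairpin groups were apart in each genotype. The changes were -0.89 ± 0.063 (adjusted p = 4e-09), -0.95 ± 0.076 (adjusted p = 4.6e-08) and -0.42 ± 0.062 (adjusted p = 3.9e-05) in wild-type, TET TKO and DNMT TKO cells. In DNMT TKO cells the fall was smaller than in wild-type by 0.46 ± 0.088 (adjusted p = 0.0012), whereas TET TKO and wild-type differed by -0.06 (95% interval -0.25 to 0.13). Orai1 and A930024E05Rik overlap Kdm2b on the other strand. The nearest measured gene outside Kdm2b, Rnf34, changed by -0.59 ± 0.062 (adjusted p = 4.5e-07) in wild-type and -0.54 ± 0.076 (adjusted p = 2.8e-05) in TET TKO cells. In DNMT TKO cells it changed by -0.05 (adjusted p = 0.59). Tmem120b, the neighbour on the other side, changed by -0.369, -0.181 and -0.175 in wild-type, DNMT TKO and TET TKO cells (adjusted p = 0.039, 0.34 and 0.49). Rnf34 and the other neighbouring genes named were chosen after the values were seen.

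Pcgf6, the subunit that defines the E2F6-associated variant of PRC1, fell in all genotypes with little spread between libraries. It read 138.1, 140.3 and 133.5 CPM in wild-type shEmpty and 90.7, 91.6 and 92.2 in shKAP1 libraries. The DNMT TKO libraries held 114.6, 112.6 and 115.2 against 89.8, 88.1 and 88.1 CPM, and the TET TKO libraries 129.3 and 133.4 against 110.4 and 111.2. The wild-type and DNMT TKO libraries ended at about the same level after knockdown and the TET TKO libraries higher. Its changes were -0.59 ± 0.044 (adjusted p = 7.8e-09), -0.36 ± 0.044 (adjusted p = 5.2e-06) and -0.25 ± 0.054 (adjusted p = 0.0019) in wild-type, DNMT TKO and TET TKO cells. The fall was smaller than in wild-type by 0.22 ± 0.062 in DNMT TKO (adjusted p = 0.018) and by 0.34 ± 0.070 in TET TKO cells (adjusted p = 0.0042). The DNMT TKO difference lost its call in 10 of 20 alternative fits, and the value then ran from 0.17 to 0.21. The Pcgf6 neighbour Taf5 changed by -0.19, -0.19 and -0.21 in wild-type, DNMT TKO and TET TKO cells (adjusted p = 0.018, 0.027 and 0.047). Ina, the other neighbour, changed by -0.38, -0.21 and 0.62 (adjusted p = 0.0046, 0.12 and 0.0011).

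Cbx7 and Rnf2 fell with the hairpin in DNMT TKO cells. In the other genotypes they did not pass, although in the fit of the TET TKO libraries alone Cbx7 passed at -0.20 (adjusted p = 0.00057), beside the rise of Rnf2 in that fit given above. Cbx7 read 142.4, 123.7 and 113.7 CPM in DNMT TKO shEmpty and 88.2, 77.5 and 94.2 in shKAP1 libraries, a change of -0.55 ± 0.090 (adjusted p = 0.00015). Wild-type libraries of both hairpins overlapped, at 189.4 to 215.1 and 170.7 to 205.1 CPM, with a change of -0.13 (95% interval -0.31 to 0.04). The fall was larger in DNMT TKO than in wild-type cells by 0.41 ± 0.126 on the log2 scale (adjusted p = 0.03, and 0.078 or 0.063 without wild-type shEmpty replicate 2 or 3). In TET TKO cells Cbx7 changed by -0.24 (-0.45 to -0.03, adjusted p = 0.11). Rnf2 read 220.3, 220.3 and 232.0 CPM in DNMT TKO shEmpty and 189.8, 207.8 and 199.9 in shKAP1 libraries, a change of -0.17 ± 0.054 (adjusted p = 0.02). Without DNMT TKO shEmpty replicate 3 or shKAP1 replicate 1 the adjusted p was 0.085 or 0.081, and with total-count scaling it was 0.13. In wild-type cells Rnf2 changed by -0.01 (95% interval -0.12 to 0.09), and in TET TKO cells by 0.12 (-0.01 to 0.25). The Rnf2 changes in DNMT TKO and wild-type cells differed by -0.16 ± 0.077, which did not pass (adjusted p = 0.18).

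Of these differences between genotypes, 4 of 9 passed for DNMT TKO against wild-type (Ezh2, Kdm2b and Pcgf6 with a smaller and Cbx7 with a larger fall), beside 18.4% of all genes in either direction. For TET TKO against wild-type 2 of 9 passed (Suz12 with a larger and Pcgf6 with a smaller fall), beside 9.69% of all genes. Among genes with a mean of at least 1 CPM, 13.8% passed as higher and 10.6% as lower for DNMT TKO. For TET TKO these shares were 6.38% and 6.79%. The genotype comparisons share the wild-type libraries. Trim28 was reduced 4.37-fold in DNMT TKO and 10.6-fold in wild-type cells, as given above, and the part of this difference in the smaller falls was not tested.

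Without the hairpin, DNMT TKO cells differed from wild-type cells in 8 of the 9 genes, beside 43.6% of all genes. Among genes with a mean of at least 1 CPM, 24.3% were higher and 29.1% lower. Suz12 was higher (1.20 ± 0.060, adjusted p = 3.5e-11), as were Ezh1 (0.46 ± 0.097, adjusted p = 0.00077), Rnf2 (0.31 ± 0.054, adjusted p = 0.00017) and Kdm2b (0.30 ± 0.062, adjusted p = 6e-04). Cbx7 (-0.66 ± 0.089, adjusted p = 1.1e-05), Ezh2 (-0.51 ± 0.056, adjusted p = 9.1e-07), Pcgf6 (-0.27 ± 0.044, adjusted p = 7.6e-05) and Eed (-0.24 ± 0.092, adjusted p = 0.04) were lower. The Eed libraries overlapped and its call was lost in 9 of 14 alternative fits. Jarid2 changed by -0.05 (95% interval -0.17 to 0.07). The groups of the remaining genes did not overlap, which held for 50.8% of all genes.

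The whole chromosomes of 3 of these genes were shifted in the same line. The median change of all tested genes was 0.287 on chromosome 11, which carries Suz12 and Ezh1, and -0.288 on chromosome 6, which carries Ezh2, and at most 0.0885 below 0, on chromosome 7 of Eed, for the other 6 genes. Less these medians, the differences were 0.92 for Suz12, 0.18 for Ezh1 and -0.22 for Ezh2. The nearest measured neighbours of Suz12 were also higher in DNMT TKO cells, Utp6 by 0.85 ± 0.056 (adjusted p = 1.2e-09) and Crlf3 by 0.42 ± 0.063 (adjusted p = 3.3e-05). The neighbours of Ezh2 were lower, Cul1 by -0.47 ± 0.066 (adjusted p = 1.6e-05) and Pdia4 by -0.36 ± 0.059 (adjusted p = 7.6e-05). A change of these genes and a change of the chromosome segment in this line cannot be told apart.

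TET TKO cells differed from wild-type cells without the hairpin in 3 of the 9 genes, all higher, beside 14.1% of all genes higher and 13.1% lower. Among genes with a mean of at least 1 CPM these shares were 17.2% and 16.8%. Suz12 was higher by 0.56 ± 0.066 (adjusted p = 4.6e-06), Kdm2b by 0.72 ± 0.068 (adjusted p = 2.8e-07) and Ezh2 by 0.28 ± 0.062 (adjusted p = 0.0023). Without wild-type shEmpty replicate 1 Jarid2 passed as well, at -0.18 (adjusted p = 0.044). The groups of Suz12, Kdm2b and Ezh2 did not overlap, which held for 53.1% of all genes. Chromosome medians ran from -0.0558 to 0.115, and the Suz12 neighbours Utp6 and Crlf3 changed by 0.16 (adjusted p = 0.067) and -0.03 (adjusted p = 0.79). Suz12 was thus above wild-type in both knockout lines, whereas Ezh2 was above it in TET TKO and below it in DNMT TKO cells.

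**Figure D3:**
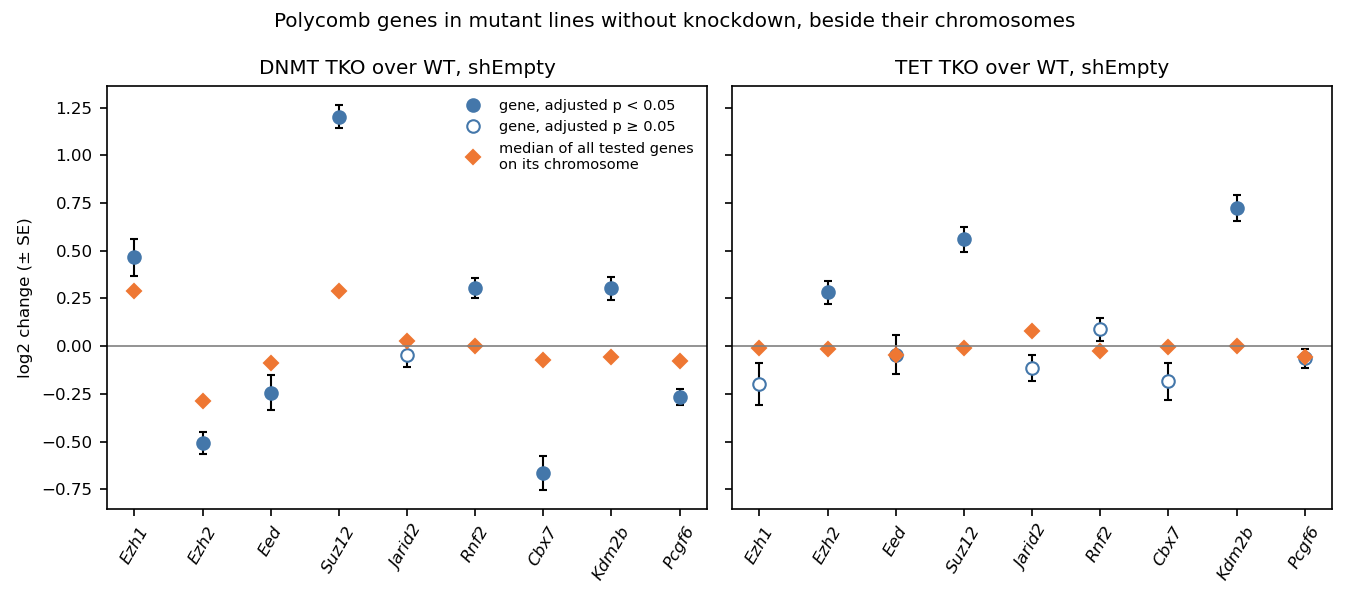
Log2 difference of each Polycomb gene between each knockout line and wild-type cells in shEmpty libraries, with bars for the SE and diamonds for the median of all tested genes on its chromosome. Suz12 in DNMT TKO cells lies at 1.20, above a chromosome 11 median of 0.287.

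The annotated gene starts of all 9 genes carried H3K4me3 and none of them carried H3K27me3 in wild-type cells. For Kdm2b this start lay 25.7 kb from the long and 114.5 kb from the short RefSeq window, and for Cbx7 38.2 kb from its RefSeq window. The Kdm2b start was that of a transcript annotated as processed, not as protein-coding. Within 2 kb of any annotated transcript start 1 of the 9, Kdm2b, carried H3K27me3 in both replicates, beside 19.7% of all genes. Within 2 kb of the annotated gene start, H3K4me3 was called in both replicates at 9 of 9 genes, beside 70.7% of all tested genes, and H3K27me3 at 0 of 9, beside 17.9%. KAP1 regions lay at 0 of 9 starts (5.57% of all genes) and KAP1-dependent H3K9me3 at 0 of 9 (1.67%). Over the gene body, 1 of the 9 carried H3K27me3 in both replicates, beside 23.1% of all tested genes. This was Kdm2b, at chr5:123399801-123405599 and chr5:123399801-123404799, 59.5 and 60.3 kb from the annotated start and over 3 transcript starts. These peaks ranked at the 88.7 and 88.0 percentiles of their lists. In the same stretch H3K4me3 was called in both replicates, at chr5:123401081-123402927 and chr5:123401041-123403068.

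Kdm2b had several H3K4me3 regions. The long start shown above lay in the one at chr5:123436685-123441310 and the short start, with 49 CpGs, in the one at chr5:123349131-123351336, whose score ranked at the 100.0 percentile of replicate 1. H3K27me3 was called in replicate 2 alone at chr5:123347801-123349999, which overlapped the H3K4me3 region of the short start. Over the gene body 1 of the 9 had KAP1 regions, beside 15.3% of all genes, and 1 had KAP1-dependent H3K9me3, beside 7.96%. Both were Jarid2, whose KAP1 regions lay at chr13:44828750-44829200, chr13:44942292-44942800 and chr13:44964901-44965453, all intronic. The region at 44828750 lay inside the H3K4me3 region over the Jarid2 start and within 2 kb of an annotated transcript start. The region at 44942292 overlapped KAP1-dependent H3K9me3 at chr13:44942201-44943199.

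**Figure D4:**
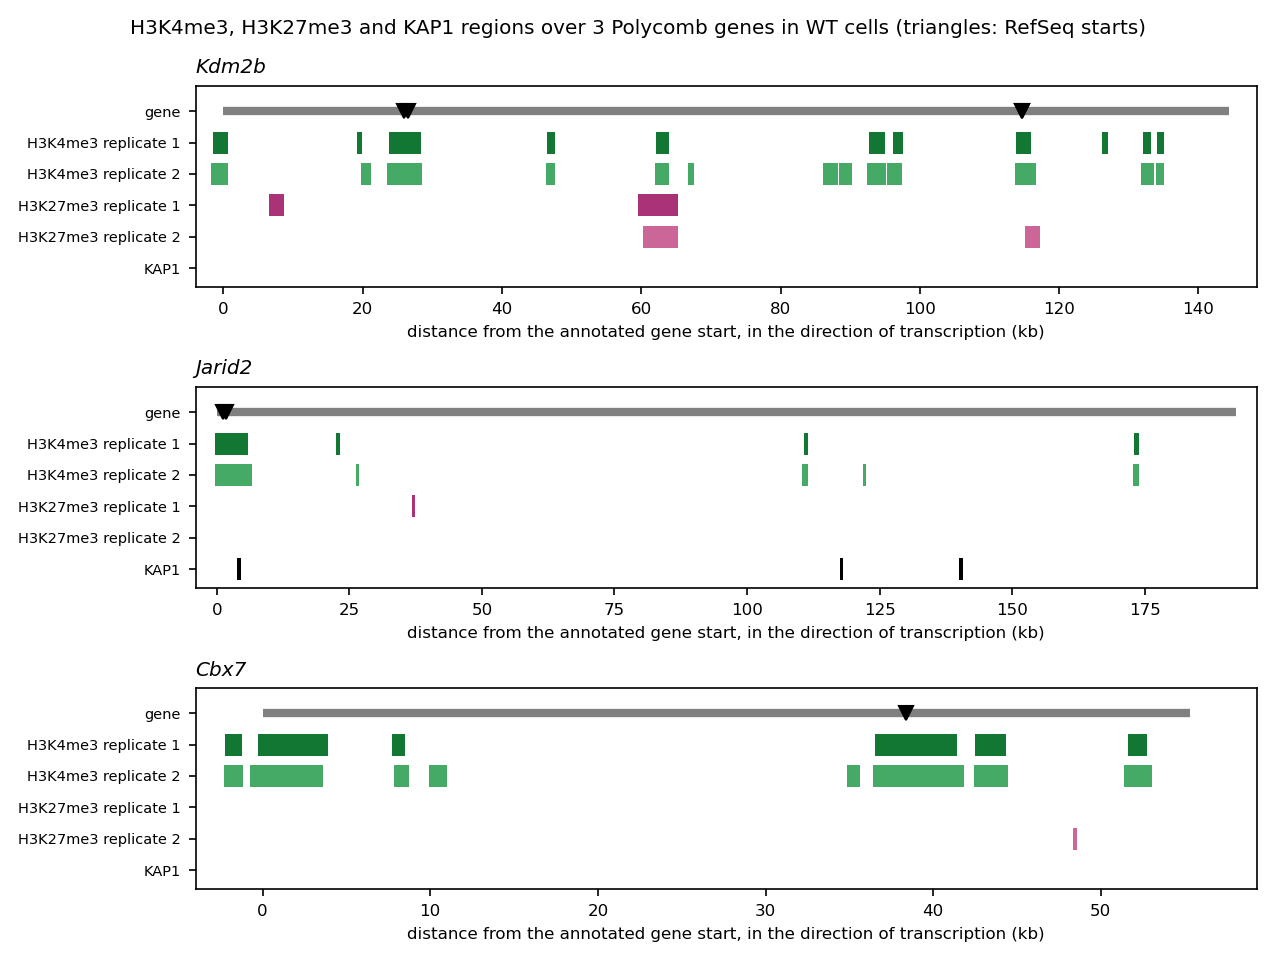
H3K4me3 and H3K27me3 peaks of both replicates and KAP1 regions along Kdm2b, Jarid2 and Cbx7, as distance from the annotated gene start in kilobases, with triangles at RefSeq starts. Kdm2b shows H3K27me3 in both replicates from 59.5 and 60.3 kb inside the gene, and Jarid2 shows 3 KAP1 regions.

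5hmC, the oxidised form of 5-methylcytosine, was read in wild-type cells in 1 library per hairpin, so these values have no replicate check. Their intervals cover the counting error of the 5hmC reads only. The input ratio was held fixed, so that intervals with input error included would be wider. At the Kdm2b long start (chr5:123436685-123441310) the 5hmC library held 33 reads with shEmpty and 79 with shKAP1, a change over input of 1.37 (log2, 95% interval 0.80 to 2.03). At the short start (chr5:123349131-123351336) it held 25 and 25 reads, a change of -0.30 (-1.16 to 0.56). Another Kdm2b H3K4me3 region, chr5:123370065-123372353, went from 11 to 30 reads, a change of 1.73 (0.77 to 2.96). Of the 9 Kdm2b H3K4me3 regions within 2 kb of an annotated transcript start, 4 had an interval above 0. The share was 21.7% of the 27830 H3K4me3 regions with at least 10 input reads, which were not limited to starts. The Suz12 start held 23 and 20 reads, a change of 0.00 (-0.95 to 0.92). At Cbx7, chr15:79797934-79801822 went from 28 to 51 reads, a change of 1.24 (0.57 to 1.98), while the region over its RefSeq start, chr15:79760157-79765005, changed by 0.32 (-0.32 to 1.02) and chr15:79802750-79803790 by -0.37 (-1.21 to 0.43). At the starts of Ezh2, Eed, Rnf2, Ezh1 and Pcgf6 the changes were 0.24, -0.21, 0.39, 0.38 and -0.55, each with an interval that held 0, and at the Jarid2 start 0.61 (0.02 to 1.23). At the Jarid2 KAP1 regions at 44828750, 44942292 and 44964901 the changes were -0.57 (-2.42 to 1.78), 0.31 (-0.28 to 0.95) and 0.64 (0.23 to 1.07). The KAP1-dependent H3K9me3 region of Jarid2 changed by 0.24 (-0.25 to 0.76). The median change was 0.392 over all H3K4me3 regions and 0.644 over all KAP1 regions. Of the values given, the Kdm2b long start, its region at 123370065 and the first Cbx7 region lay above both. Yet their 5hmC stayed below input with both hairpins. In that order, log2 5hmC over input went from -2.06 to -0.68, -2.83 to -1.10 and -2.48 to -1.24. Libraries were scaled to their reads in all region sets, and every set had a median change above 0 (0.18 to 0.66). The paper describes genes, and loci with a mark of active transcription, as changing little and generally lacking this oxidised form.

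The other genes of the Polycomb system, 45 fixed as a list of PRC2 accessory proteins, PRC1 subunits, PR-DUB and demethylases, moved in both directions. After knockdown in wild-type cells 18 rose and 11 fell (median 0.106, where the median of all genes was -0.01), in DNMT TKO cells 8 and 11, and in TET TKO cells 12 and 9. As shares of the 45 these were 40.0% and 24.4%, 17.8% and 24.4%, and 26.7% and 20.0%, beside 23.0% and 22.7%, 19.7% and 15.6%, and 15.3% and 15.1% of all genes. Of the genes named by the rule for large passing changes, Epop, a PRC2 accessory protein, fell in all genotypes. It read 303.1, 380.6 and 387.9 CPM in wild-type shEmpty and 107.2, 99.4 and 118.6 in shKAP1 libraries, without overlap (-1.72 ± 0.114, adjusted p = 1.3e-08). In DNMT TKO and TET TKO cells it changed by -0.74 ± 0.111 (adjusted p = 0.00011) and -0.87 ± 0.136 (adjusted p = 0.00019). Phc2, a Polyhomeotic subunit of canonical PRC1, rose from 20.7, 22.5 and 21.9 to 49.5, 51.5 and 48.5 CPM in wild-type cells (1.20 ± 0.074, adjusted p = 6.3e-10). Asxl3, a PR-DUB cofactor, rose in all genotypes, by 1.17 ± 0.188 in wild-type (adjusted p = 5.5e-05), 2.08 ± 0.201 in DNMT TKO (adjusted p = 3.8e-07) and 0.78 ± 0.219 in TET TKO cells (adjusted p = 0.011).

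Scml2, a PRC1-associated gene, differed most between DNMT TKO and wild-type cells among the genes given here. It read 5.942, 7.542 and 5.803 CPM in wild-type, 125.1, 121.0 and 129.2 in DNMT TKO and 7.68 and 7.21 in TET TKO shEmpty libraries. DNMT TKO stood apart from both other genotypes, by 4.27 ± 0.105 over wild-type (adjusted p = 1.8e-15), and fell with the hairpin to 27.4, 31.1 and 29.5 CPM (-2.09 ± 0.092, adjusted p = 2.6e-11). Cbx8, an alternative chromodomain reader of canonical PRC1, was higher than in wild-type cells in both lines, by 1.21 ± 0.163 in TET TKO (adjusted p = 2e-05) and by 1.00 ± 0.151 in DNMT TKO shEmpty cells (adjusted p = 3.2e-05). It lies on chromosome 11, which was shifted by 0.287 in DNMT TKO cells. Less the chromosome medians, the Cbx8 differences were 1.22 in TET TKO and 0.714 in DNMT TKO cells. Cbx8 counted 55 to 130 reads in wild-type, 160 to 219 in DNMT TKO and 268 and 233 in TET TKO shEmpty libraries.

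**Figure D5:**
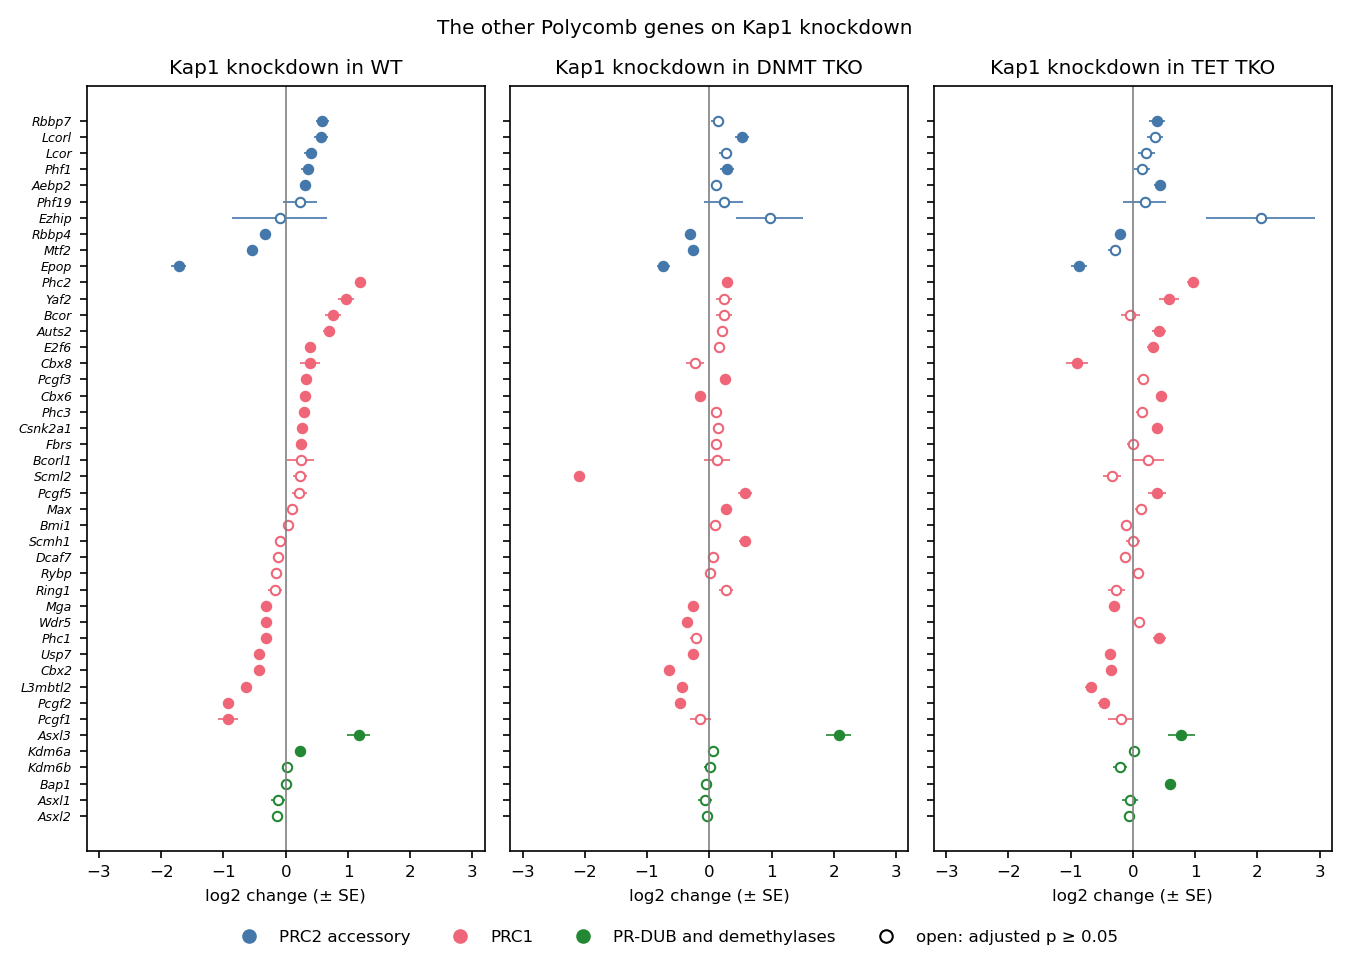
Log2 change after Kap1 knockdown of the other Polycomb genes in each genotype, grouped by complex, with bars for the SE and filled points for an adjusted p under 0.05. Epop lies below 0 in each genotype (-1.72 in wild-type cells), and Asxl3 above it.

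The 3633 genes with H3K27me3 at their start in both wild-type replicates, the mark that PRC2 places, moved in both directions. After knockdown in wild-type cells 27.6% of them rose and 18.7% fell, beside 23.0% and 22.7% of all tested genes, with a median of 0.113. In DNMT TKO cells 24.3% rose and 12.7% fell (median 0.182), beside 19.7% and 15.6% of all genes. In TET TKO cells it was 16.8% and 14.3% (median 0.02), beside 15.3% and 15.1%. Among genes with a mean of at least 1 CPM the wild-type shares were 34.4% and 25.6%, beside 26.2% and 29.5%.

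Across the 16 libraries, the genes whose log2 level ran most like these were found among 11081 genes, as a description that carries the group structure of the libraries. Suz12 ran most like Anln (Pearson r = 0.99) and Ddx10 (0.979), Ezh2 like Nr2c2ap (0.983) and Cpe (0.972), and Kdm2b like Cd63 (0.98) and Cyp4f39 (0.976). Pcgf6 ran most like Krt42 (0.978) and Gcat (0.976), Cbx7 like Amotl2 (0.975) and Chd2 (0.972), and Eed like 8430406I07Rik (0.968) and Ppie (0.963). The nearest to Ezh1 were Atp10d (0.948) and Fbxl20 (0.946), to Jarid2 Golga5 (0.943) and Ampd2 (0.923), and to Rnf2 Impa1 (0.918) and Pramef17 (0.897).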

How the data were processed

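RNA-seq, ChIP-seq and hMeDIP of J1 mESCs were analysed as deposited. RNA reads were aligned to mm9 with HISAT2 2.0.1 and counted by the authors over GENCODE vM1 genes with featureCounts (1.5.1 per the labels, 1.5.0-p1 in the file headers), so that the deposited values are read counts per gene. The peak files give a score for each peak as the authors deposited it (MACS 1.4 for H3K4me3, caller not given in the sources used here for H3K27me3), and the 5hmC table gives deposited counts of reads per region. Only replicate 1 of 5hmC was used, because the labels and names of the other replicate disagree.

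Genes with at least 16 reads over the 16 libraries were fitted in edgeR 4.0.16 (TMM, quasi-likelihood, all 6 groups, Benjamini-Hochberg over 20321 genes) in R 4.3.3; a gene passed at an adjusted p under 0.05. Levels are CPM, or RPKM where genes are compared. The 95% intervals of log2 changes in expression took the normal quantile times the SE, so they are narrower than the quasi-likelihood test allows. For Jarid2 knockdown in DNMT TKO cells such an interval ran from -0.242 to -0.00182, where that test gave an unadjusted p of 0.0625. limma-voom (limma 3.58.1, the study's tool), DESeq2 1.42.0, other scalings and filters, a replicate block and leaving out each library were the alternatives. Same-numbered libraries of wild-type and DNMT TKO groups deviated together (correlation 0.0973 to 0.557 over 18 pairs) and those of TET TKO did not (-0.069 to 0.0342). Per the methods, replicates came from independent experiments. The genes named were the 9, Trim28 and, in each knockdown and baseline comparison, the 3 largest passing rises and falls of the list, of which examples are given and 1 gene is not reported here. The 9 genes, the lists and this rule were chosen with earlier results of these data known. Scripts were tested on simulated data.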

Additional observations from a re-analysis of the deposited data

Results flagged for a closer look

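The effect of Kap1 knockdown differed between genotypes by the interaction term of edgeR's quasi-likelihood fit for 4 of the 9 genes in DNMT TKO cells, beside 18.4% of all genes, and 2 of the 9 in TET TKO cells, beside 9.69%. Among genes with a mean of at least 1 CPM, 13.8% passed as higher and 10.6% as lower in DNMT TKO cells, and 6.38% and 6.79% in TET TKO cells. Relative to wild-type cells, the change in DNMT TKO cells was higher by 0.316 for Ezh2, 0.463 for Kdm2b and 0.222 for Pcgf6 (log2; adjusted p = 0.0093, 0.0012 and 0.018) and lower for Cbx7 (-0.411, adjusted p = 0.03). In TET TKO cells it was lower for Suz12 (-0.326, adjusted p = 0.037) and higher for Pcgf6 (0.34, adjusted p = 0.0042). The Suz12 call was lost without any 1 of 9 of the 10 libraries. In DNMT TKO cells the call of Pcgf6 was lost without any 1 of 7 of the 12, that of Cbx7 without any 1 of 2 and that of Ezh2 without 1. Leaving out 1 library left as few as 2 genes for DNMT TKO and 1 for TET TKO cells. The DNMT TKO values stand beside a smaller reduction of Trim28 in that line, whose part in them was not tested.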

How the results depend on the processing

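Requiring a 2-fold change as well left 0 of the 9 genes in each comparison except DNMT TKO against wild-type without the hairpin, where it left 1. It left 3, 2, 0, 1, 1, 6 and 2 of the 45 other Polycomb genes and 3529, 2534, 2542, 1450, 855, 3308 and 2127 of all genes (knockdown in wild-type, DNMT TKO and TET TKO, DNMT TKO and TET TKO interactions, DNMT TKO and TET TKO baselines). Fitting the TET TKO libraries alone gave 8 of the 9 genes for knockdown, 1 of them higher, beside 50.2% of the 17382 genes tested in that fit. Over the gene body 1 of the 9 had KAP1 (15.3% of all genes), 1 KAP1-dependent H3K9me3 (7.96%) and 1 H3K27me3 (23.1%), and at any transcript start, chosen after seeing the data, 1 had KAP1 (6.8%) and 1 H3K27me3 (19.7%).

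Leaving out 1 library gave 2 to 5 and 1 to 2 genes for the DNMT TKO and TET TKO interactions, 9 to 16 of the 45 in the TET TKO baseline, and 974 to 1956, 3532 to 5349 and 4060 to 4557 of all genes for the TET TKO interaction, baseline and knockdown. Total-count scaling moved the share of higher calls from 55.8% to 66.3% for knockdown in DNMT TKO and from 50.3% to 61.6% in TET TKO cells. With the replicate number as a block the Suz12 interaction of DNMT TKO passed (-0.24, adjusted p = 0.044) and no other call on the 9 genes changed. No passing value of the 9 genes changed sign, and 14 values that passed in neither fit did. Rnf2 in wild-type knockdown (-0.014) was 0.0080 with DESeq2's size factors, 0.064 with total-count scaling, 0.012 with a filter of 10 counts per library, 0.0090 in DESeq2, 0.0035 in the fit of its own groups, and -0.046 to 0.038 on leaving out 1 library, above 0 for 3 libraries. Ezh1 in DNMT TKO knockdown (-0.013) was 0.048 with total-count scaling and -0.18 to 0.069 on leaving out 1 library, above 0 for 3. The Ezh1 interaction and the Eed baseline of TET TKO went from -0.085 to 0.024 and from -0.093 to 0.025, above 0 only without wild-type shEmpty replicate 1. The other values of the 9 genes were 876 of the same direction and side of the threshold, 34 that lost and 21 that gained a call. The Eed baseline of DNMT TKO lost its call without wild-type shEmpty replicate 1 or 2 or DNMT TKO shEmpty replicate 2 or 3 (adjusted p = 0.06 to 0.18), and the Pcgf6 interaction of DNMT TKO without 7 libraries (0.054 to 0.1). The 2 TET TKO libraries per hairpin and 1 5hmC library limit what can be told.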
